A study of Mus musculus with 4 samples.

Results

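Notch signalling genes were examined in mouse embryonic stem cells that had or had not received bone morphogenetic protein 2 (BMP-2). The genes are 4 ligands (Dll1, Dll3, Jag1 and Jag2), 2 receptors (Notch1 and Notch3) and 4 target genes (Hes1, Hey1, Hey2 and Nrarp), 10 of the 18193 genes named alone on the array. They were chosen by gene symbol in the platform annotation, which gave 16 of the 45037 probe sets that remained without controls, and 15 of these 16 were bright enough to be tested. All 4 samples were of E14Tg2A.4, a subline of the mouse embryonic stem cell line E14Tg2a. In the treated group 2 samples had 25 ng/ml of BMP-2 for 1 h, and in the control group 2 samples were left untreated. The titles of the control samples give no time. Total RNA of each sample was labelled with biotin and hybridised to 1 Affymetrix array. The culture medium is not given in the sources used here, and they do not say whether samples of a group were separate cultures. The p-values therefore set a difference only against the spread of these samples, part of which may be technical. That spread was estimated partly from the other probe sets. All values describe 1 cell line and RNA from whole cultures, in which fewer cells of a type and less RNA per cell cannot be told apart.

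In the Notch pathway, a membrane-bound ligand of the Delta-like or Jagged family on one cell binds a Notch receptor on its neighbour. The receptor is then cut within the membrane by gamma-secretase, and its intracellular domain enters the nucleus, where it joins the DNA-binding protein RBPJ and a Mastermind-like co-activator. Hes and Hey genes, which encode basic helix-loop-helix repressors, and Nrarp, which encodes a feedback inhibitor of the receptor's nuclear complex, are known targets of that complex. Pluripotent stem cells express Notch receptors and ligands, and the pathway is known for its part in their later neural and mesodermal differentiation.

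Sequence just upstream of the gene starts is shown for Dll1, the member with the largest tested difference, and for Hey2, the target gene whose window holds an RBPJ core motif. The table of RefSeq promoters used here (build GRCm38.p6) held 9 start sites for 8 of the 10 members, and windows of Hes1 and Hey1 were not analysed here. The 250 bases before each start were searched on both strands for TGGGAA, the core of the RBPJ motif, and for GGCGCC, a GC-rich core bound by SMAD1 and SMAD5, the transcription factors that BMP signals activate. No member window held both motifs, so no matches overlapped. TGGGAA was in 1 of the 9 windows and in 21.6% of the 32851 windows of all genes. GGCGCC was in 1 of the 9, against 9.59% of all windows. A match describes these letters only. Each line below reads 5′ to 3′ on the minus strand, with a motif in capitals (TTCCCA is TGGGAA on the other strand). The Dll1 windows lie at chr17:15375824-15376073 and chr17:15376933-15377182, and the Hey2 window at chr10:30842784-30843033.
Dll1, start A: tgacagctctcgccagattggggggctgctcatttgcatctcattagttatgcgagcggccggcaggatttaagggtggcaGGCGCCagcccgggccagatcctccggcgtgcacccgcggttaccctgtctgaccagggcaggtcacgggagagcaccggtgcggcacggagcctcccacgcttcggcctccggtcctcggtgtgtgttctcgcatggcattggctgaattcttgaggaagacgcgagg
Dll1, start B: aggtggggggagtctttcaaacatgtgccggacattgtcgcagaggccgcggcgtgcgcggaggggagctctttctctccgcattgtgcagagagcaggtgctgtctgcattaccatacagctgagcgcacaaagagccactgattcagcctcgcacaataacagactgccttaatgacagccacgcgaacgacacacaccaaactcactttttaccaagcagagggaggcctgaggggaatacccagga
Hey2: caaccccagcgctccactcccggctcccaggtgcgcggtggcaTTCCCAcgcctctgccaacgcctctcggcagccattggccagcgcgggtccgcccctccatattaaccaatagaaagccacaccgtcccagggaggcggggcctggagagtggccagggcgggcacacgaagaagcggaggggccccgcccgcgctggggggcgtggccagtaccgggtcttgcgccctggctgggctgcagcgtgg
The GGCGCC motif began 169 bases before start A of Dll1, and the RBPJ core began 207 bases before the Hey2 start.

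Markers of embryonic stem cells were bright on all 4 arrays. The 8 stem cell markers (among them Pou5f1, Nanog and Sox2) had summed signals of 90745 and 86444 in treated cells and 90980 and 85599 in untreated cells. The 5 neural markers summed to between 3136 and 3802 on each array, and the 4 mesoderm, 4 endoderm, 4 endothelial and 5 fibroblast markers on the array to between 320 and 731 per list. Mean signals were under 53.0, the lower limit for testing, for 1 of the 5 neural markers (Sox1), 1 of the 4 endothelial (Tie1) and 3 of the 5 fibroblast markers (Col1a1, Col3a1 and Lum). The other markers of these lists, Kdr, Pecam1, Thy1 and Col1a2 among them, were above it. Id1, Id2 and Id3, early BMP targets, were each read from their brightest tested probe set. They were 3.14-fold, 3.38-fold and 3.32-fold higher in treated cells, with limma adjusted p-values of 2.0e-05, 3.6e-05 and 3.6e-05. The array of untreated replicate 2 stood apart in its 18S ribosomal RNA control probe sets, which read 3.94 to 6.11 times the highest of the other arrays. Both arrays numbered 2 had higher median signals (94.9 and 94.6) than both numbered 1 (81.8 and 82.4).

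The comparison asked which Notch transcripts differed after 1 h of BMP-2. No member passed an adjusted p of 0.05 by limma's test over all 27022 tested probe sets, and Dll1 was the only one of the 15 at an unadjusted p under 0.05, as were 3.07% of all tested probe sets (829). Dll1 was 1.59 times as high in untreated as in treated cells. The other 14 tested probe sets differed by -0.30 to 0.36 on the log2 scale, 11 of them higher and 3 lower with BMP-2. Over all tested probe sets 5 passed, or 0.0185%, so 0 of 15 members is near that background. The count of 5 rests on all 4 arrays. It was 93 without treated replicate 1, 141 without treated replicate 2, 38 without untreated replicate 1 and 16 without untreated replicate 2, and those fits leave 1 array in a group, assumed to vary as the other group does. Of the members, 0 passed in 3 of these fits and 1, Dll1, in the fit without treated replicate 2.

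**Figure D1:**
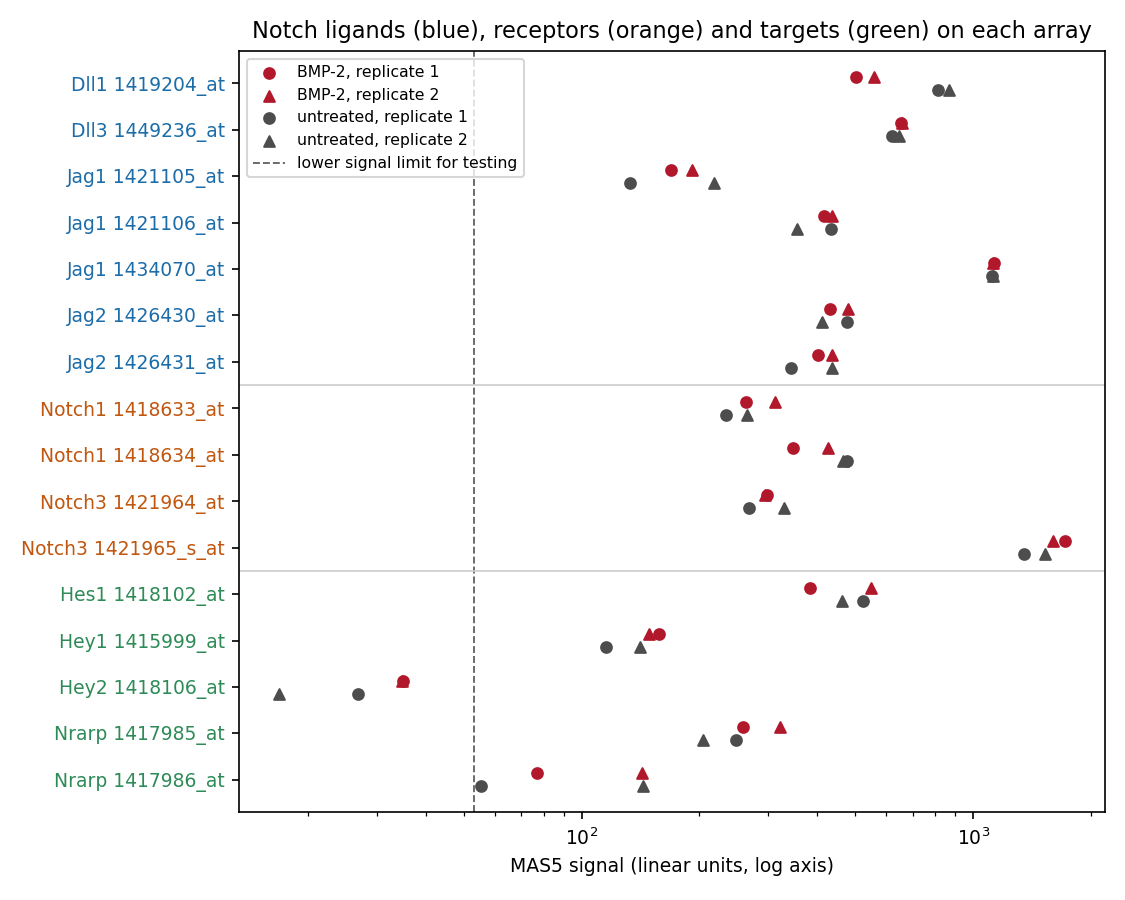
Signal of each Notch member probe set on each array (log axis), with treated arrays in red, untreated arrays in grey and the lower limit for testing (53.0) as a dashed line. The Dll1 points of the treated arrays (503 and 559) lie left of both untreated points (815 and 869), and Hey2 lies under the limit on all arrays.

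Among the ligands, Dll1 had the largest difference. Dll1 encodes Delta-like 1, a ligand that activates Notch receptors on neighbouring cells. Its signal was 503 and 559 on the arrays of treated replicates 1 and 2, against 815 and 869 on those of untreated replicates 1 and 2. Later pairs of values keep this order. Both treated arrays were low and both untreated arrays high, and the gap between the groups was larger than the gap within either. The means were 531 ± 39.6 (SD, n = 2) and 842 ± 38.6 (SD, n = 2), a log2 difference of -0.67 with an SE of 0.12 (95% interval -0.94 to -0.39, limma adjusted p = 0.433, unadjusted p = 0.00034). As a fold, untreated cells were 1.59 times higher, with an interval of 1.31 to 1.92. By p-value Dll1 was number 21 of the 27022 tested probe sets. By its difference, 358 of the 27022 lay as low, Dll1 included. In the 8677 that were at least as bright as Dll1, a limit set at Dll1 itself, no other lay as low and 11, Dll1 included, were as large in either direction, while 4 to 12 lay as low when an array was left out. The log2 difference kept its sign in all 12 alternatives, from -0.74 to -0.59. The changes of filter, the fit without the intensity trend and the replicate block leave the difference itself unchanged. As the groups did not overlap, neither the pseudocount nor leaving out an array could turn the sign. It was free to turn only under the other normalizations. The adjusted p ran from 0.0261, without treated replicate 2, to 1.00, without the intensity trend of the variance, and was under 0.05 in that first fit only.

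Neural progenitors express Dll1 in the embryo. The summed signal of the 5 neural markers was 3205 and 3136 in treated cells and 3504 and 3802 in untreated cells, without overlap. The single markers did not share a direction. Of the 4 tested, 0 passed, and Nes and Pax6, with log2 differences of 0.03 and -0.02, overlapped between the groups. The sum was largely that of the brightest pair. Neurod1, a neurogenic transcription factor, read 1361 and 1303 against 1731 and 1532, without overlap (log2 difference -0.29, limma unadjusted p = 0.019, adjusted p = 1.00). Tubb3, a neuronal tubulin, read 1165 and 1110 against 1150 and 1484 with overlapping groups (-0.20). Sox1 was under the limit at 12.0 and 14.8 in treated and 9.19 and 11.7 in untreated cells. Of 5 markers listed for primitive streak and presomitic mesoderm, the other embryonic site of Dll1, 4 were on the array. These summed to 419 and 593 in treated and 366 and 450 in untreated cells, and the sums overlapped. Singly, Mesp1 and Mesp2 were higher in treated cells without overlap, with log2 differences of 0.55 and 0.15. Msgn1 and Tbx6 overlapped between the groups (-0.01 and 0.53), and 0 of the 4 passed. The part of either cell type in the Dll1 difference was not tested.

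Dll3 encodes a divergent Delta-like protein that acts within the same cell and does not activate Notch on neighbours. It read 653 and 659 in treated cells and 621 and 648 in untreated cells. The groups did not overlap, yet they lay close together, with a log2 difference of 0.05 and an SE of 0.12 (interval -0.22 to 0.32). A difference of the size seen for Dll1 lies outside this interval.

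Jag1, a Jagged-family ligand, was measured by 3 probe sets that had little difference between the groups. The brightest read 1127 and 1121 with BMP-2 and 1116 and 1120 without, a log2 difference of 0.01 (interval -0.22 to 0.24) whose sign turned under quantile normalization and with each array centred on its median over the tested probe sets. The second read 415 and 436 against 434 and 354 (log2 difference 0.12, interval -0.23 to 0.46), and the dimmest 169 and 191 against 133 and 218 (0.08, interval -0.50 to 0.65). On these the untreated arrays spanned or overlapped the treated ones, and the sign turned when an array was left out.

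Jag2, the other Jagged ligand, was covered by a pair of probe sets. The first read 432 and 479 against 477 and 410 (log2 difference 0.04, interval -0.29 to 0.37). The second read 400 and 435 against 343 and 435 (0.11, interval -0.25 to 0.47). Treated and untreated signals overlapped on both, and both signs turned when an array was left out.

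**Figure D2:**
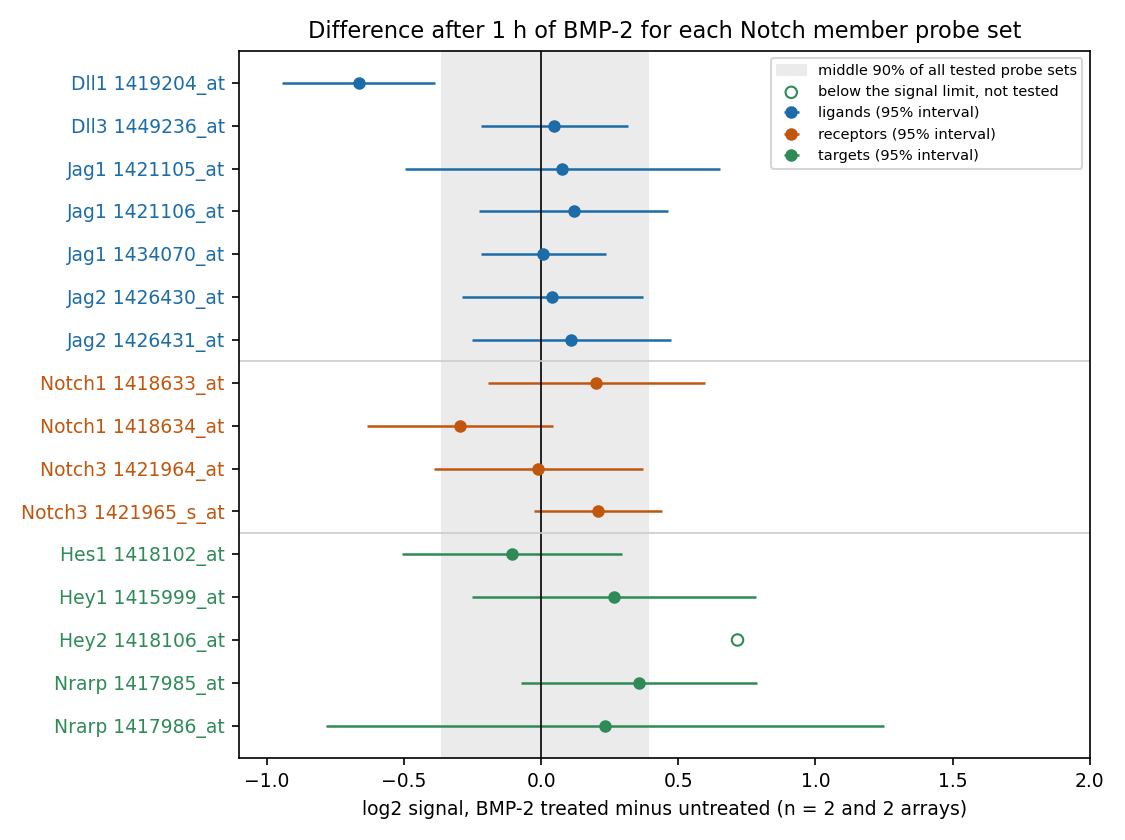
Log2 signal of treated minus untreated arrays for each Notch member probe set (points) with 95% intervals of the limma fit (bars). The grey band holds the middle 90% of all tested probe sets, from -0.36 to 0.39. Dll1 lies at -0.67, outside the band, and its interval of -0.94 to -0.39 does not reach 0. Every other tested member has an interval that includes 0, and Hey2 (open circle) was not tested.

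The receptors gave probe sets that differed from each other within a gene. Notch1 encodes the receptor best known from T-cell and neural development. Its brighter probe set read 347 and 425 in treated cells and 477 and 466 in untreated cells. Both treated arrays were lower, with a wide gap between them (log2 difference -0.30, SE 0.15, interval -0.64 to 0.04, limma adjusted p = 1.00). The other Notch1 probe set read 263 and 311 against 233 and 265, in the opposite direction and with overlapping groups (0.20, SE 0.18, interval -0.19 to 0.60). Neither sign turned in an alternative, with ranges of -0.44 to -0.15 and 0.08 to 0.32. For the brighter probe set, whose groups did not overlap, leaving out an array could not turn the sign. The difference between the probe sets was not tested.

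Notch3 encodes a receptor known from vascular smooth muscle. The brighter probe set read 1719 and 1594 in treated cells and 1348 and 1524 in untreated cells, without overlap (log2 difference 0.21, SE 0.10, interval -0.03 to 0.44, limma adjusted p = 1.00). The identifier of that probe set ends in _s_at, which marks probes that can match more than a single transcript. The dimmer Notch3 probe set read 297 and 294 against 268 and 330. The treated arrays fell between the untreated ones, and the difference of -0.01 (interval -0.39 to 0.37) changed sign when untreated replicate 2 was left out.

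The target genes had the widest spread between arrays. Hes1 encodes a repressor of proneural genes. It read 383 and 547 in treated cells and 524 and 463 in untreated cells. The treated arrays lay on either side of the untreated ones, so the log2 difference of -0.11 (SE 0.18, interval -0.51 to 0.30) became 0.15 without treated replicate 1. As a ratio of treated to untreated signal, the interval of Hes1 ran from 0.704 to 1.23.

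Hey1, a related basic helix-loop-helix repressor, read 158 and 149 in treated cells and 115 and 141 in untreated cells. Both treated arrays were higher, by less than the untreated arrays differed from each other (log2 difference 0.27, SE 0.23, interval -0.25 to 0.78). Hey2, its close relative and a regulator of heart and vessel development, read 35.0 and 34.8 in treated cells and 26.8 and 16.9 in untreated cells. All 4 Hey2 signals lay under the limit of 53.0, so the log2 difference of 0.72 is given without a fold or a test. Without the filter it had a limma adjusted p of 1.00.

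Nrarp was measured by a pair of probe sets. The brighter read 258 and 322 in treated cells and 248 and 204 in untreated cells. The groups did not overlap, but treated replicate 1 and untreated replicate 1 were close (log2 difference 0.36, SE 0.19, interval -0.07 to 0.79, limma adjusted p = 1.00, range 0.20 to 0.52 over the alternatives). The dimmer Nrarp probe set read 77.0 and 143 against 55.5 and 143. Its arrays differed more by replicate number than by treatment, and the difference of 0.23 (interval -0.78 to 1.25) turned sign without treated replicate 2 and without untreated replicate 1.

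Across the 15 tested probe sets, the 2 groups were free of overlap for 7, or 46.7%, with 5 higher and 2 lower. Over all tested probe sets the share without overlap was 28.4%, made up of 15.9% higher and 12.5% lower. The 7 belong to 7 genes, none of which passed by limma. By role, 3 of 7 ligand, 2 of 4 receptor and 2 of 4 target probe sets did not overlap. The median difference was 0.08 log2 over the members and 0.0076 over all tested probe sets. For the ligands it was 0.05, for the receptors 0.10 and for the targets 0.25. The members' median moved between 0.0055, without untreated replicate 1, and 0.15, without treated replicate 1. Regardless of sign, the median size of the difference was 0.12 log2 over the members and 0.11 over all tested probe sets.

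**Figure D3:**
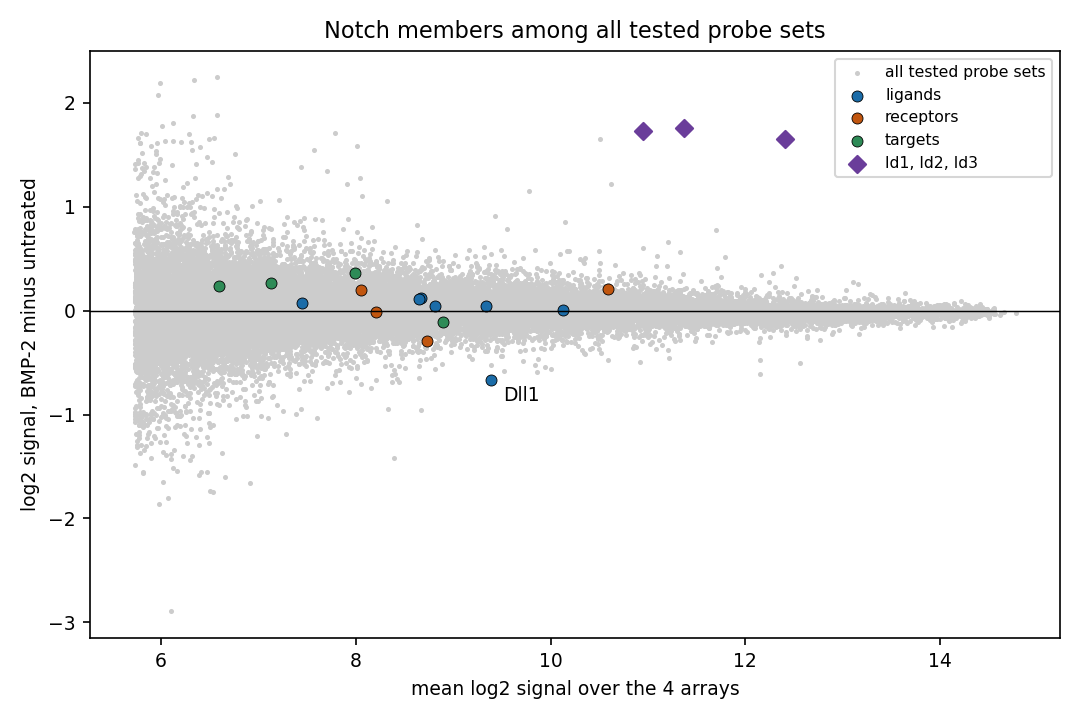
Difference of log2 signal (treated minus untreated, vertical) against mean log2 signal over the 4 arrays (horizontal) for the 27022 tested probe sets in grey, with the Notch members coloured by role. Dll1, at -0.67, is at the lower edge of the cloud for its brightness, the other members are within the cloud, and Id1, Id2 and Id3 (diamonds) lie at 1.65, 1.76 and 1.73.

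The rest of the pathway was read from a list of 65 other genes in 10 roles, with the brightest tested probe set standing for each gene. Of these 65, 60 were in the annotation and 51 were tested. By limma 0 passed an adjusted p of 0.05 and 3 had an unadjusted p under 0.05, beside 3.07% of all tested probe sets. There were 32 higher and 19 lower with BMP-2, with a median of 0.04 log2, where all tested probe sets split into 14099 higher and 12923 lower, and 18 of the 51 (35.3%) did not overlap, against 28.4% of all tested probe sets.

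Of the genes that receive or modify the signal at the membrane, none passed, and the brightest of each role had these values. Dlk1, a non-canonical ligand, differed by 0.22 log2 (SE 0.26), and all 3 tested other ligands were higher. Notch2, the brighter of the other 2 receptors, read 783 and 773 against 713 and 636 (0.21, SE 0.12). Mib2, a ubiquitin ligase that drives ligand endocytosis, differed by -0.03 (SE 0.12). Rfng, a Fringe glycosyltransferase that alters which ligands a receptor answers to, also differed by -0.03 (SE 0.10), and 4 of the 6 genes of its role were lower.

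Of the receptor cleavage enzymes, the nuclear complex, the co-repressors and the inhibitors, the brightest genes had these values. Psenen, a gamma-secretase subunit, differed by 0.09 log2 (SE 0.08). Rbpj, the DNA-binding partner of the Notch intracellular domain, read 3646 and 3365 in treated and 3484 and 3316 in untreated cells (0.04, SE 0.08). Of the 6 tested genes of the nuclear complex 5 were higher, and 1 of these, the acetyltransferase gene Ep300, had an unadjusted p under 0.05 (0.23, SE 0.10, limma adjusted p = 1.00). Hdac1, a deacetylase found in co-repressor complexes, differed by -0.03 (SE 0.07) and Nedd4, a ubiquitin ligase, by -0.02 (SE 0.07). Numbl, a relative of the Notch inhibitor Numb, read 773 and 741 against 568 and 619 (0.35, SE 0.12, limma adjusted p = 1.00).

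Among other Hes and Hey genes and Bhlhe40, which was listed with them, 4 of 7 were tested, 2 higher and 2 lower. Bhlhe40 (0.38 log2, SE 0.35) and Hes7 (0.14, SE 0.32) were the higher ones, and Heyl was lower (-0.46, SE 0.36). The groups overlapped for each of them. Hes6, which is known to oppose Hes1, differed by -0.04 log2 (SE 0.11). Of 5 proneural genes, which Hes proteins repress, 4 were in the annotation and 2 of these were bright enough to be tested. Neurog3 read 141 and 200 against 108 and 163 (0.34, SE 0.28). Atoh1 read 48.6 and 70.9 in treated and 125 and 116 in untreated cells, the lowest difference of the list (-1.04, SE 0.32, limma adjusted p = 1.00), with 1 treated array under the limit of 53.0. Ep300, Numbl and Atoh1 were named after their values were seen, as the 3 genes with an unadjusted p under 0.05.

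**Figure D4:**
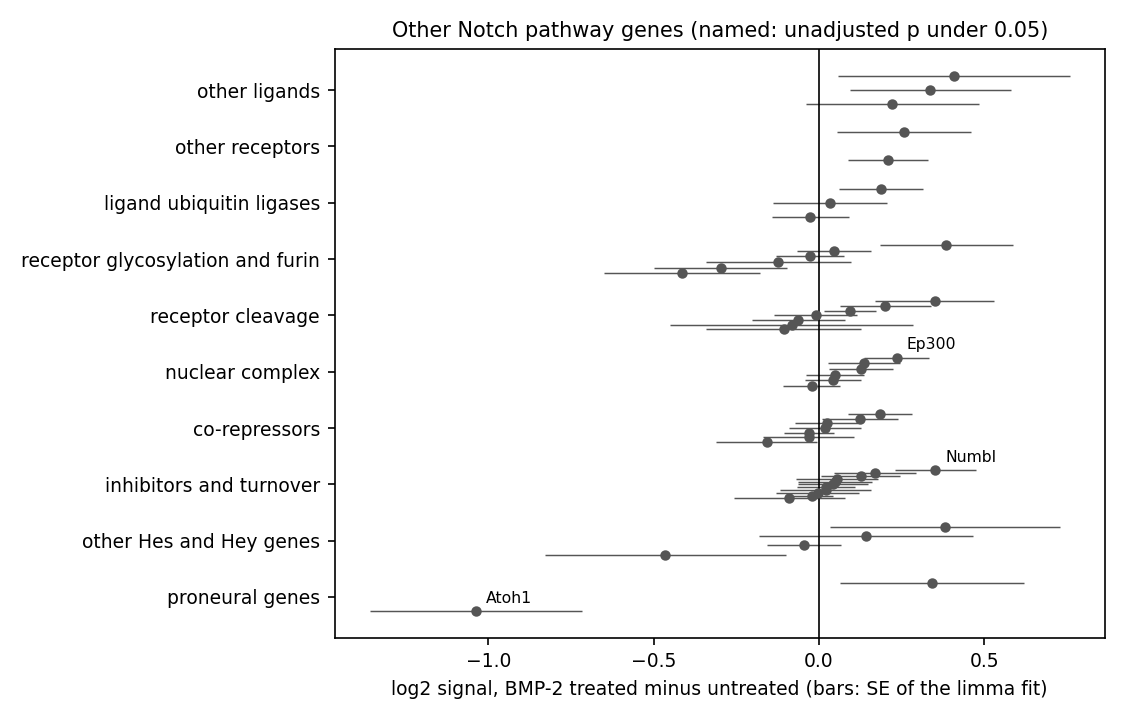
Log2 signal of treated minus untreated arrays for 51 other Notch pathway genes, by role, with the SE of the limma fit as bars. Most points lie within 0.4 of 0, and the 3 genes with an unadjusted p under 0.05 (Ep300, Numbl and Atoh1) are labelled, none of them passing after adjustment.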

How the data were processed

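RNA of 4 samples, 2 per group by their titles, was measured on 1 array each. The deposited intensity values are linear, with 1 value per probe set, and the authors used MAS5 per the submitters' processing notes. Its version is not given in the sources used here, and detection calls were not used here. Low MAS5 signals are noisy on a log scale. Signals were taken as log2 without further normalization, since array medians lay within 0.21 log2. Controls (64 probe sets) were left out, and probe sets with a mean log2 signal above the 40th percentile (5.73, a signal of 53.0) were tested. Their number was 27022.

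The test of treated against untreated was that of limma 3.58.1 under R 4.3.3 (lmFit, then eBayes with an intensity trend, two-sided, Benjamini-Hochberg over all tested probe sets), with 2 residual and 7.98 prior degrees of freedom, and the code was tested on simulated data. With 2 arrays per group no permutation test can pass 0.05. Members were taken by symbol, and all 10 symbols matched the RefSeq gene table. All members are named, with the brightest gene of each pathway role. The members and lists were chosen with earlier results of these data known. Alternatives were other normalizations, a pseudocount of 25.4, no or a stricter filter (60th percentile), a block for the replicate number, no trend, gene means and the omission of each array.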

Additional observations from a re-analysis of the deposited data

How the results depend on the processing

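Of 179 values of member differences under the alternatives, 166 kept their direction and their side of the threshold, 12 reversed in 8 probe sets and 1 (Dll1 without treated replicate 2) passed. The values without the filter, with the stricter filter, without the intensity trend and with the replicate block repeat the main difference. Their direction could not change, so the count of values that kept it overstates how stable the directions were. Among the reversed values, the brightest Jag1 probe set took -0.0061 log2 under quantile normalization and -0.023 when centred over the tested probe sets. The latter setting was added after seeing the data. When an array was left out, the other Jag1 probe sets ran from -0.28 to 0.43 and from -0.028 to 0.26, Jag2 from -0.068 to 0.15 and from -0.061 to 0.28, the dimmer Notch3 from -0.16 to 0.14, Hes1 from -0.36 to 0.15 and the dimmer Nrarp from -0.45 to 0.92; the cause was not tested. The median of the members then ran from 0.0055 to 0.15, and 0 to 1 members passed. At an unadjusted p under 0.05 by limma there was 1 member in each setting, except 2 without treated replicate 1, treated replicate 2 or untreated replicate 2. With an array left out, 16 to 141 of all tested probe sets passed, 2 to 106 of them lower. Against 5 passing and 0 lower, 116 passed (44 lower) with each array centred on its median over all probe sets, 17 (5 lower) when centred over the tested ones, 8 with the stricter filter and 0 without the intensity trend by limma (1023 at an unadjusted p under 0.05, 1 of them a member). Of those passing, 1 was lower under quantile normalization and 1 with the pseudocount. With the replicate block 11 passed, 1 of them lower, and no member did (Dll1 adjusted p = 0.193 by limma). Arrays of equal number deviated together at r = 0.15 over tested probe sets, but with 2 numbers and no label on pairing they share only a number. Dim signals and 2 arrays per group limit the precision, above all for Hey2 and the dimmer Nrarp probe set. No other Notch pathway gene passed under any of the 13 alternatives run.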
